A study of Mus musculus with 6 samples.

Results

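The genes described here are 10 genes known from fibro-adipogenic progenitors, the mesenchymal progenitor cells that lie between muscle fibres: Pdgfra, Dcn, Lum, Pi16, Dpp4, Mfap5, Fbn1, Smoc2, Clec3b and Cd34. They were taken by gene symbol from a table of 17030 genes, all 10 were found, and all 10 were among the 14763 genes abundant enough to test. RNA came from the mononuclear cell fraction of skeletal muscle in 6 male C57BL/B6 mice, each bearing an LLC tumour, a transplanted Lewis lung carcinoma used to model cancer cachexia. The genotype of 3 mice was Pax7 Cre ErT x IKKbfl/fl, called Pax7-CreERT below, and that of the other 3 was IKKbfl/fl, called control. Tamoxifen, which activates the Cre, was given to all 6 mice from day 10 to day 14 after tumour cell injection. IKKb, the product of Ikbkb, switches on canonical NF-kB signalling, and every mouse carried its floxed alleles. Pax7 drives the Cre in satellite cells, the stem cells of the muscle fibre, so the progenitors studied here are not the cells in which it is expressed. No mouse without a tumour and none with Cre but without floxed alleles was analysed here, and the labels give no ages.

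Fibro-adipogenic progenitors are recognised by the receptor PDGFRA, produce much of the connective tissue matrix of muscle, and can give rise to fibroblasts and fat cells. They support satellite cells after injury, and in wasting or diseased muscle they are a known source of fibrosis. Distinct states have been described in mouse muscle, one around the vessels and fascia that carries PI16 and DPP4, and one within the tissue that is richer in matrix proteins such as lumican and SMOC2.

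Estimated depth ran from 4054000 to 13350000 assigned reads per library, and levels are given in CPM, counts per 1000000 assigned reads. The faintest value of any of the 10 genes rested on 50 reads and the strongest on 23646 reads, so counting error per library had an SD of at most 14.1%. Ikbkb itself measured 51.4, 48.4 and 52.7 CPM in the Pax7-CreERT libraries and 51.3, 57.4 and 48.8 CPM in the controls, sums over all exons and all cells that do not report on deletion in satellite cells. Control replicate 3 stood apart in its red cell content: haemoglobin genes took 2.72%, 1.84% and 4.83% of the CPM in the Pax7-CreERT libraries and 4.47%, 2.57% and 12.6% in the controls. Log2 fold changes of the 10 genes without Pax7-CreERT replicate 1 or control replicate 3 are plotted beside those from all 6 libraries, and given in the text where they move most.

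The 10 genes were present in every library, at levels that differed widely between genes. Per kilobase of annotated exon, Dcn stood highest with a mean of 296 CPM per kb over the 6 libraries (SD 105), followed by Cd34 with 77.6 CPM per kb (SD 5.61). The ranges of these 2 genes overlapped with no other member. Lum followed with 23.8 CPM per kb, then Pdgfra with 18.5 and Fbn1 with 17.0. The next levels were 13.6 CPM per kb for Smoc2, 13.2 for Clec3b, 13.2 for Pi16, 10.9 for Mfap5 and 5.05 for Dpp4. From Lum downwards each gene's range overlapped that of the next. Lum was above Pdgfra and Mfap5 above Dpp4 in all 6 libraries, whereas Smoc2 was above Clec3b in 3 of 6.

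None of the 10 genes passed the test between genotypes, and the pattern across mice was uneven. Means were higher in the Pax7-CreERT mice for 8 genes and lower for 2, where 68.0% of all genes tested were higher. The median log2 fold change was 0.30 for the 10 genes and 0.09 over all genes. Without Pax7-CreERT replicate 1 these medians were 0.03 and 0.08, and without control replicate 3 they were 0.56 and 0.04. At an adjusted p under 0.05 in limma, 0 of the 10 genes passed, where 1 of 14763 genes, or 0.00677%, passed in either direction. At an unadjusted p under 0.05, 3 of the 10 genes were higher, namely Fbn1, Lum and Smoc2, against 4.58% of all genes, and 0 were lower, against 0.942%. The values of the Pax7-CreERT mice and the controls overlapped for all 10 genes, so 0 of 10 were separate where 11.0% of all genes were in either direction and 8.69% of all genes were as higher. In these mixed cells, a different number of progenitors and a different amount of RNA per progenitor cannot be told apart.

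**Figure D1:**
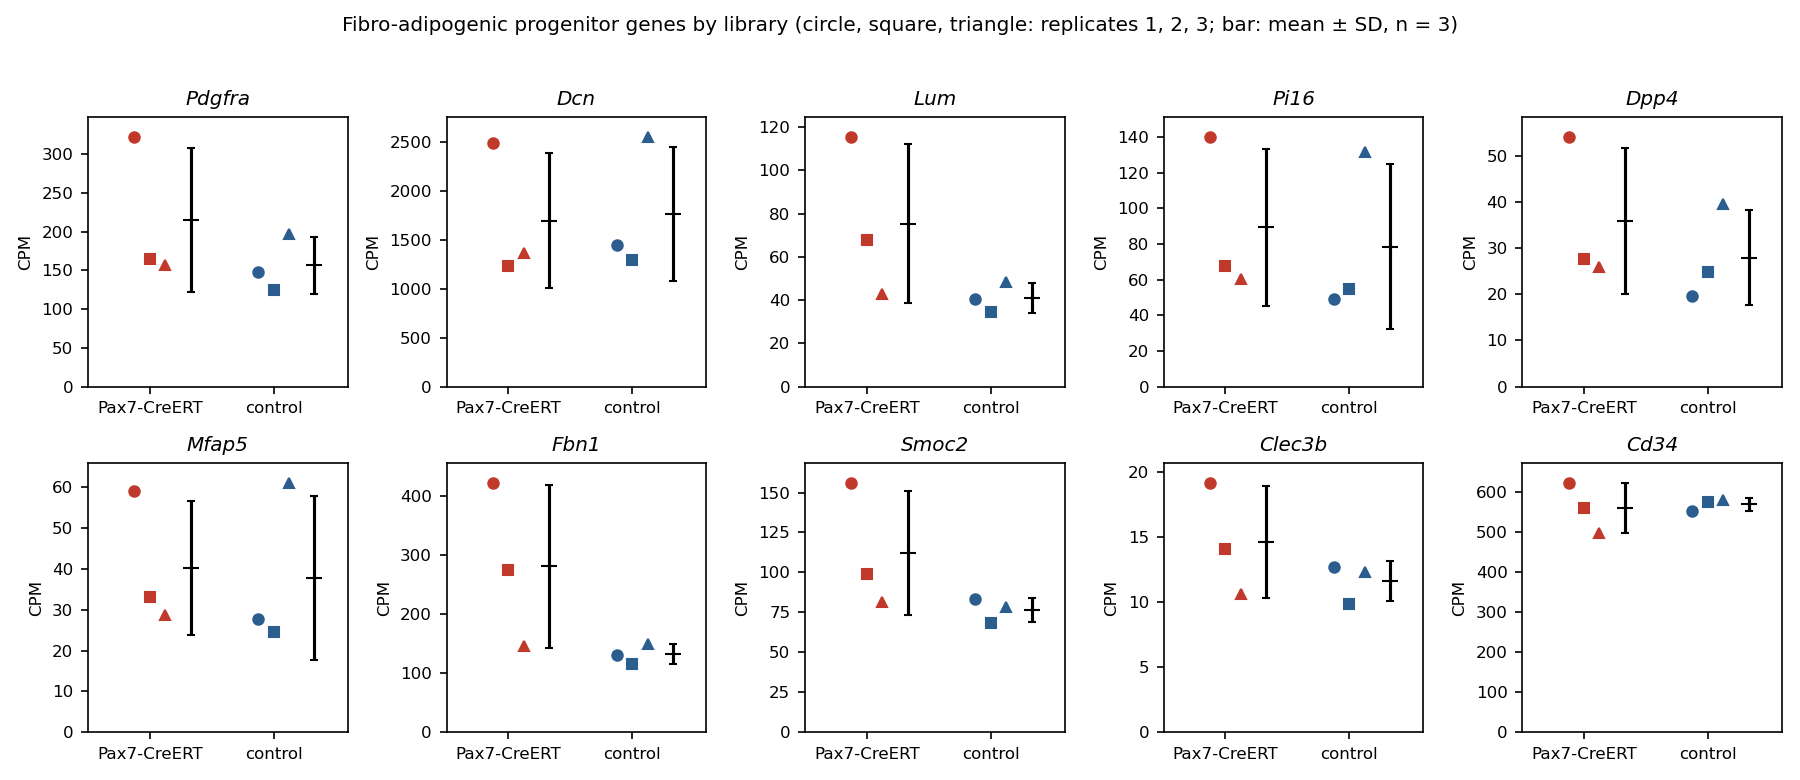
CPM of the 10 genes in each library, with Pax7-CreERT mice on the left and controls on the right of each panel; circle, square and triangle are replicates 1, 2 and 3, and the bar is the mean ± SD (n = 3 each). Pax7-CreERT replicate 1 is the highest library in 8 panels, and control replicate 3 is 1.78 to 2.54 times the mean of the other controls for Dcn, Pi16, Dpp4 and Mfap5 but 1.03 to 1.09 times for Smoc2, Clec3b and Cd34.

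Among the surface genes, Pdgfra came first as the defining receptor of these cells, a receptor tyrosine kinase for platelet-derived growth factors (mm10 chromosome 5, 75152251 to 75198206). Pdgfra gave 322, 165 and 157 CPM in the Pax7-CreERT libraries and 147, 125 and 197 CPM in the controls. Replicate 1 was the one Pax7-CreERT library above control replicate 3, and the other 2 lay between that library and the remaining controls. Pdgfra averaged 215 ± 93.2 CPM in Pax7-CreERT mice and 157 ± 36.9 CPM in controls (SD, n = 3 each). On the log2 scale limma put the difference at 0.40 with an SE of 0.27 (95% interval -0.21 to 0.998, adjusted p = 0.899). The fold change was 0.06 without Pax7-CreERT replicate 1.

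Dpp4 encodes a dipeptidyl peptidase of the cell surface that marks the perivascular progenitor state and is also found on T cells (chromosome 2, 62330073 to 62412231). Dpp4 stood at 54.0, 27.6 and 25.8 CPM in the Pax7-CreERT libraries and 19.6, 24.8 and 39.5 CPM in the controls. As for Pdgfra, the highest library was Pax7-CreERT replicate 1 and the next was control replicate 3. Dpp4 averaged 35.8 ± 15.8 CPM in Pax7-CreERT mice and 27.9 ± 10.3 CPM in controls (SD, n = 3 each), a limma log2 fold change of 0.33 with an SE of 0.31 (adjusted p = 0.911). The fold change was -0.0032 without Pax7-CreERT replicate 1 and 0.60 without control replicate 3. The 7 T cell markers in the table summed to 31.0, 29.8 and 41.3 CPM in the Pax7-CreERT libraries and 21.2, 18.2 and 50.6 CPM in the controls, and the T cell receptor component Cd3e was at most 0.987 CPM. Thy1 alone gave 20.8, 22.5 and 17.7 CPM in the Pax7-CreERT libraries and 14.4, 11.99 and 18.5 CPM in the controls. Thy1 was most of each sum except in Pax7-CreERT replicate 3 and control replicate 3. Control replicate 3, second highest for Dpp4, had the highest of these sums. Pax7-CreERT replicate 3 had the next highest sum, 41.3 CPM, with 25.8 CPM of Dpp4. Pax7-CreERT replicate 1, highest for Dpp4 at 54.0 CPM, had a sum of 31.0 CPM. The part of T cells in the Dpp4 values was not tested.

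Cd34 encodes a sialomucin of progenitors that endothelial cells and satellite cells also carry (chromosome 1, 194938821 to 194961292). Its values were the steadiest of the 10, with 623, 561 and 498 CPM in the Pax7-CreERT libraries and 552, 576 and 581 CPM in the controls. The highest library was 1.25 times the lowest, where the other 9 genes spanned 1.95 to 3.65 times. Its log2 fold change in limma, -0.03 with an SE of 0.14, had a 95% interval of -0.35 to 0.29 (adjusted p = 0.980). Endothelial markers were abundant in the same libraries, their 10 genes summing to 5358 to 6537 CPM in the Pax7-CreERT mice and 5102 to 6777 CPM in the controls. Which cells gave the Cd34 reads was not tested. An antisense gene that overlaps Cd34, Gm16897, was also in the table with a mean of 39.99 CPM, and the use of strand in counting is not given in the sources used here.

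Pi16 belongs to the CAP family of secreted proteins and marks the same perivascular state as Dpp4 (chromosome 17, 29318882 to 29328902). Pi16 reached 140, 67.5 and 60.4 CPM in the Pax7-CreERT libraries and 49.1, 54.6 and 132 CPM in the controls. One library in each group was more than 2 times the mean of its group's other libraries, by 2.19 times in Pax7-CreERT replicate 1 and 2.54 times in control replicate 3. The remaining Pax7-CreERT libraries were 1.30 and 1.17 times the mean of control replicates 1 and 2. In limma the log2 fold change, 0.23 with an SE of 0.39 and a 95% interval of -0.64 to 1.09 (adjusted p = 0.949), became -0.15 without Pax7-CreERT replicate 1 and 0.67 without control replicate 3.

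The promoters of Pdgfra and Dpp4 are shown because these genes had each other as nearest profile over the 6 libraries among the members. Other such pairs of members were closer in profile, as given below. Each is the 250 bases before the RefSeq start on GRCm38.p6, 5′ to 3′ on the gene's strand, at chr5:75152001-75152250 (plus strand) for Pdgfra and chr2:62412232-62412481 (minus strand) for Dpp4, and neither window holds an exon in GENCODE (release vM21). The RefSeq gene records of both genes begin further upstream than the start used here, so these windows may lie inside longer RefSeq transcripts. Capitals mark matches to the motifs searched.
Pdgfra: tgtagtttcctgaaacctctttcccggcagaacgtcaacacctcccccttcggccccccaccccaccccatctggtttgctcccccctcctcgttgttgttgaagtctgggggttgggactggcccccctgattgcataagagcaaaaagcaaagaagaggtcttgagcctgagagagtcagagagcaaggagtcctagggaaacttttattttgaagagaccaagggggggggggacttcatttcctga
Dpp4: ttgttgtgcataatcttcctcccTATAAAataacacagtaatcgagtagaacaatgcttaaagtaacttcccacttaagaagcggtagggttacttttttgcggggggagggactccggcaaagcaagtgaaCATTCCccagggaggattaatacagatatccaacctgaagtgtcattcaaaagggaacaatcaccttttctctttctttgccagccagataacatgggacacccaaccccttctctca
Both strands were searched for the NF-kB motif, the AP-1 motif TGANTCA, the TEAD motif CATTCC, the GC box GGGCGG and the TATA box TATAAA, none of which overlapped another in these windows. Dpp4 held CATTCC 118 bases and TATAAA 227 bases before its start, and Pdgfra held none of the 5 motifs. RefSeq promoters were at hand for 5 of the 10 genes, the others being Fbn1, Pi16 and Cd34. Unlike those printed, the windows of Fbn1, Pi16 and Cd34 do hold annotated exons in GENCODE. The NF-kB motif was in 0 of these 5 windows and in 3.9% of all 32851 promoters, and the AP-1 motif was in 0 of 5 and in 6.75%. The TEAD motif was in 1 of 5 and in 12.6% of all promoters, the TATA box in 1 of 5 and in 12.4%, and the GC box, found in Fbn1, in 1 of 5 and in 32.7%.

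The proteoglycan genes Dcn and Lum lie next to each other on chromosome 10 and differed in which libraries were high. Dcn, at 97479500 to 97518163, encodes decorin, a small leucine-rich proteoglycan that binds collagen fibrils and transforming growth factor beta. Dcn amounted to 2486, 1235 and 1358 CPM in the Pax7-CreERT libraries and 1445, 1291 and 2545 CPM in the controls. The 2 high libraries, one of each genotype, were nearly equal, and the other 4 lay close together. Dcn averaged 1693 ± 689 CPM in Pax7-CreERT mice and 1760.1 ± 684 CPM in controls (SD, n = 3 each). Its limma log2 fold change was -0.06 with an SE of 0.32 (95% interval -0.78 to 0.66, adjusted p = 0.981), and it became -0.38 without Pax7-CreERT replicate 1 and 0.24 without control replicate 3.

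Lum, at 97565501 to 97572703 and 47337 bases beyond the end of Dcn with 0 protein-coding genes between them, encodes lumican, which regulates the spacing of collagen fibrils. Lum gave 115, 67.9 and 42.7 CPM in the Pax7-CreERT libraries and 40.6, 34.4 and 48.4 CPM in the controls. Here Pax7-CreERT replicates 1 and 2 were the highest, and control replicate 3 was 1.29 times the mean of the other controls, against 1.86 times for Dcn. Lum averaged 75.4 ± 36.9 CPM in Pax7-CreERT mice and 41.1 ± 7.01 CPM in controls (SD, n = 3 each). The limma log2 fold change was 0.76 with an SE of 0.30 (95% interval 0.09 to 1.43, adjusted p = 0.891). By exact permutation the 2-sided p was 0.2, and 0.1 is the smallest that 3 against 3 allows. Without Pax7-CreERT replicate 1 the fold change was 0.40.

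The microfibril genes Fbn1 and Mfap5 divided in the same way. Fbn1 encodes fibrillin-1, the backbone of extracellular microfibrils, which also holds latent transforming growth factor beta in the matrix (chromosome 2, 125300594 to 125506438). Fbn1 reached 421, 275 and 145 CPM in the Pax7-CreERT libraries and 130.4, 115 and 149.5 CPM in the controls. Pax7-CreERT replicates 1 and 2 stood above every control, and replicate 3 lay within the control range. Fbn1 had the largest fold change of the 10 genes, averaging 280.3 ± 138 CPM in Pax7-CreERT mice and 132 ± 17.1 CPM in controls (SD, n = 3 each), a ratio of 2.13. The limma log2 fold change was 0.96, with an SE of 0.31 and a 95% interval of 0.26 to 1.66 (adjusted p = 0.891, exact 2-sided permutation p = 0.2). The fold change stayed above 0 under every alternative run, from 0.60 without Pax7-CreERT replicate 1 to 1.37 without Pax7-CreERT replicate 3, with adjusted p-values in limma between 0.240 and 0.999.

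Mfap5 encodes MAGP-2, a small glycoprotein bound to fibrillin microfibrils (chromosome 6, 122513584 to 122529287). Mfap5 stood at 58.9, 33.02 and 28.7 CPM in the Pax7-CreERT libraries and 27.7, 24.5 and 60.9 CPM in the controls. Control replicate 3 was the highest of all 6 libraries and Pax7-CreERT replicate 1 the second, as for Dcn. In limma the log2 fold change was 0.14 with an SE of 0.35 (adjusted p = 0.966), and it was -0.17 without Pax7-CreERT replicate 1 and 0.54 without control replicate 3.

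The remaining secreted genes, Smoc2 and Clec3b, were nearest to each other in profile. Smoc2 encodes a calcium-binding matricellular protein of the SPARC family (chromosome 17, 14279506 to 14404790) and measured 156, 98.8 and 81.8 CPM in the Pax7-CreERT libraries and 83.4, 68.3 and 78.2 CPM in the controls. Pax7-CreERT replicate 3 was below control replicate 1, the one overlap between the groups. Smoc2 had a limma log2 fold change of 0.49 with an SE of 0.21 and a 95% interval of 0.02 to 0.97 (adjusted p = 0.895, exact permutation p = 0.2), and 0.23 without Pax7-CreERT replicate 1. Clec3b encodes tetranectin, a plasminogen-binding lectin of plasma and matrix (chromosome 9, 123150946 to 123157432), and was the faintest of the 10 in CPM. Clec3b gave 19.1, 14.1 and 10.6 CPM in the Pax7-CreERT libraries and 12.7, 9.83 and 12.3 CPM in the controls, a limma log2 fold change of 0.28 with an SE of 0.23 (adjusted p = 0.899). Without Pax7-CreERT replicate 1 it was 0.07.

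**Figure D2:**
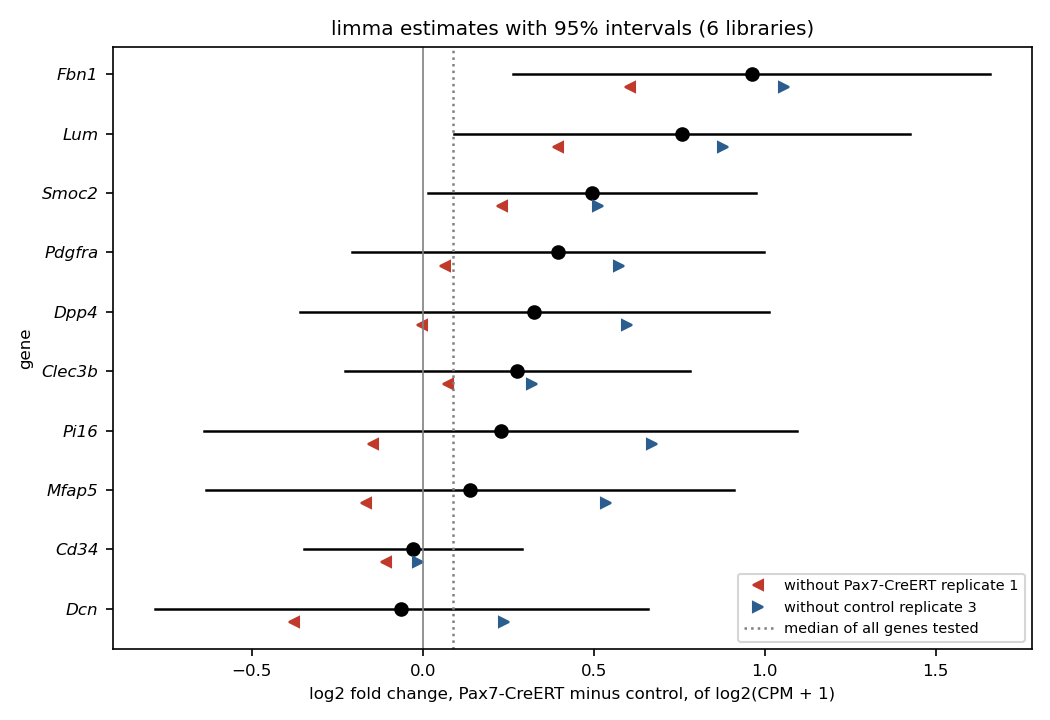
Log2 fold changes of the 10 genes (black points) with 95% intervals (black lines) from limma on 6 libraries, with the values without Pax7-CreERT replicate 1 (red) and without control replicate 3 (blue); the dotted line is the median of all genes tested, 0.09. The intervals of Fbn1, Lum and Smoc2 lie above 0, and leaving out Pax7-CreERT replicate 1 moves every gene downwards.

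Read across libraries, the 10 genes fell into sets by their highest mice. Pax7-CreERT replicate 1 was the highest library for 8 of 10 genes, against 20.4% of all genes tested. Pax7-CreERT replicate 1 and control replicate 3 were the 2 highest libraries for 6 genes, Pdgfra, Dcn, Pi16, Dpp4, Mfap5 and Cd34, a pattern found in 7.11% of all genes. Cd34 was among them by a narrow margin, 581 CPM in control replicate 3 against 576 CPM in control replicate 2. Its counting SD was at most 2.06% per library. Pax7-CreERT replicates 1 and 2 were the 2 highest for the other 4, Lum, Fbn1, Smoc2 and Clec3b, against 13.8% of all genes. Pi16 and Mfap5 were each other's nearest profile (root mean square distance 0.13 on the centred log2 scale over 6 libraries). So were Lum and Fbn1 (0.13), Smoc2 and Clec3b (0.13), and Pdgfra and Dpp4 (0.19). The farthest pair of members was 0.63 apart. These distances are descriptions over 6 libraries that all 10 genes share.

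**Figure D3:**
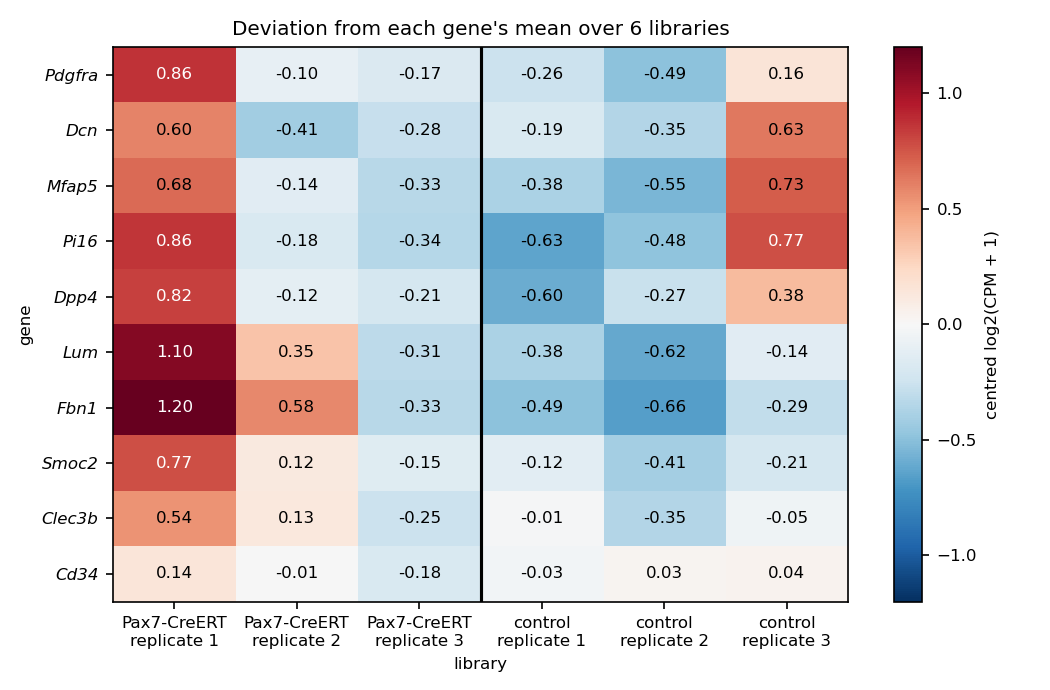
Each gene's log2(CPM + 1) in each library minus its mean over the 6 libraries, with Pax7-CreERT libraries left of the line and controls right of it. Control replicate 3 is 0.77 for Pi16, 0.73 for Mfap5 and 0.63 for Dcn but -0.14 for Lum and -0.29 for Fbn1, whereas Pax7-CreERT replicate 1 is above 0 for all 10 genes.

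Leaving out a library changed how many of the 10 genes were separate between the groups, a count chosen after the values were seen. Without control replicate 3, 6 genes, Pdgfra, Lum, Pi16, Dpp4, Mfap5 and Fbn1, were higher in every Pax7-CreERT mouse than in the other controls. Of all genes, 14.4% were then separate as higher and 21.4% in either direction. Without Pax7-CreERT replicate 3, 4 genes, Lum, Fbn1, Smoc2 and Clec3b, were separate, all as higher, against 23.9% of all genes in either direction. Without control replicate 1 the one separate gene was Smoc2, as higher (23.6% of all genes in either direction). Without Pax7-CreERT replicate 1 or 2 or control replicate 2 the count was 0 (18.0%, 18.1% and 22.2% of all genes).

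The balance between the genes was then read within each library, which removes library depth and scaling from the comparison. These ratios were chosen after the values were seen. Dcn served as denominator because it was the most abundant of the 10 per kilobase of exon. Fbn1 stood at 0.169, 0.223 and 0.107 of the Dcn CPM in the Pax7-CreERT libraries and 0.0903, 0.0894 and 0.0588 in the controls. Every Pax7-CreERT library was above every control, with means of 0.166 ± 0.0578 and 0.0795 ± 0.0180 (SD, n = 3 each), a ratio of 2.09. The exact 2-sided permutation p was 0.1, the smallest that 3 against 3 allows. Any 3 against 3 without overlap gives this p, so it adds nothing to the lack of overlap.

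Lum stood at 0.0464, 0.0550 and 0.0315 of Dcn in the Pax7-CreERT libraries and 0.0281, 0.0266 and 0.0190 in the controls, again without overlap. The ratio of Pdgfra to Dcn was 0.130, 0.134 and 0.115 in the Pax7-CreERT libraries and 0.102, 0.0971 and 0.0776 in the controls. That of Smoc2 to Dcn was 0.0627, 0.0800 and 0.0602 in the Pax7-CreERT libraries and 0.0577, 0.0529 and 0.0307 in the controls. Its margin was narrow, 0.0602 against 0.0577, where the counting SD of Smoc2 was at most 5.62% per library. So 4 of the other 9 members were higher relative to Dcn in every Pax7-CreERT mouse, where 1.9% of 14762 genes were (0 members and 0.454% of genes were lower), and the ratios of Pi16, Dpp4, Mfap5, Clec3b and Cd34 to Dcn overlapped.

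Over all 45 pairs of the 10 genes, 14 had ratios that did not overlap between the groups. The share over pairs of all genes was not counted. Pairs that share a gene are not independent, and Lum was in 5 of the 14. Fbn1 was in 6 of these pairs and was the higher gene in the Pax7-CreERT mice in each, relative to Pdgfra, Dcn, Lum, Mfap5, Clec3b and Cd34. Of all genes tested, 21.5% were lower relative to Fbn1 without overlap. Relative to Pdgfra, Fbn1 was the 1 member that was higher without overlap (0.305% of all genes), with 1.31, 1.66 and 0.927 in the Pax7-CreERT libraries and 0.884, 0.922 and 0.758 in the controls. The margin was narrow, 0.927 in Pax7-CreERT replicate 3 against 0.922 in control replicate 2. Counting SD per library was at most 3.60% for Pdgfra, 4.06% for Fbn1 and 7.14% for Lum. Dcn was the 1 member that was lower relative to Pdgfra (4.11% of all genes). Relative to Lum, Fbn1 was higher (0.0339% of all genes) and Dcn, Mfap5, Clec3b and Cd34 were lower (13.0%). Relative to Mfap5, the higher members were Lum and Fbn1 (0.562%). Relative to Clec3b the higher members were Lum, Fbn1 and Smoc2 (0.793%), and relative to Cd34 the same 3 members (8.8%), with 0 members lower in either case (4.03% and 1.34% of all genes). Pi16 and Dpp4 were in 0 of the 14 pairs. The count of separate pairs was 14 to 23 when each library was left out in turn, again without a share over pairs of all genes. With a library left out, the share of single genes that were separate also rose, from 11.0% to between 18.0% and 23.9%.

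**Figure D4:**
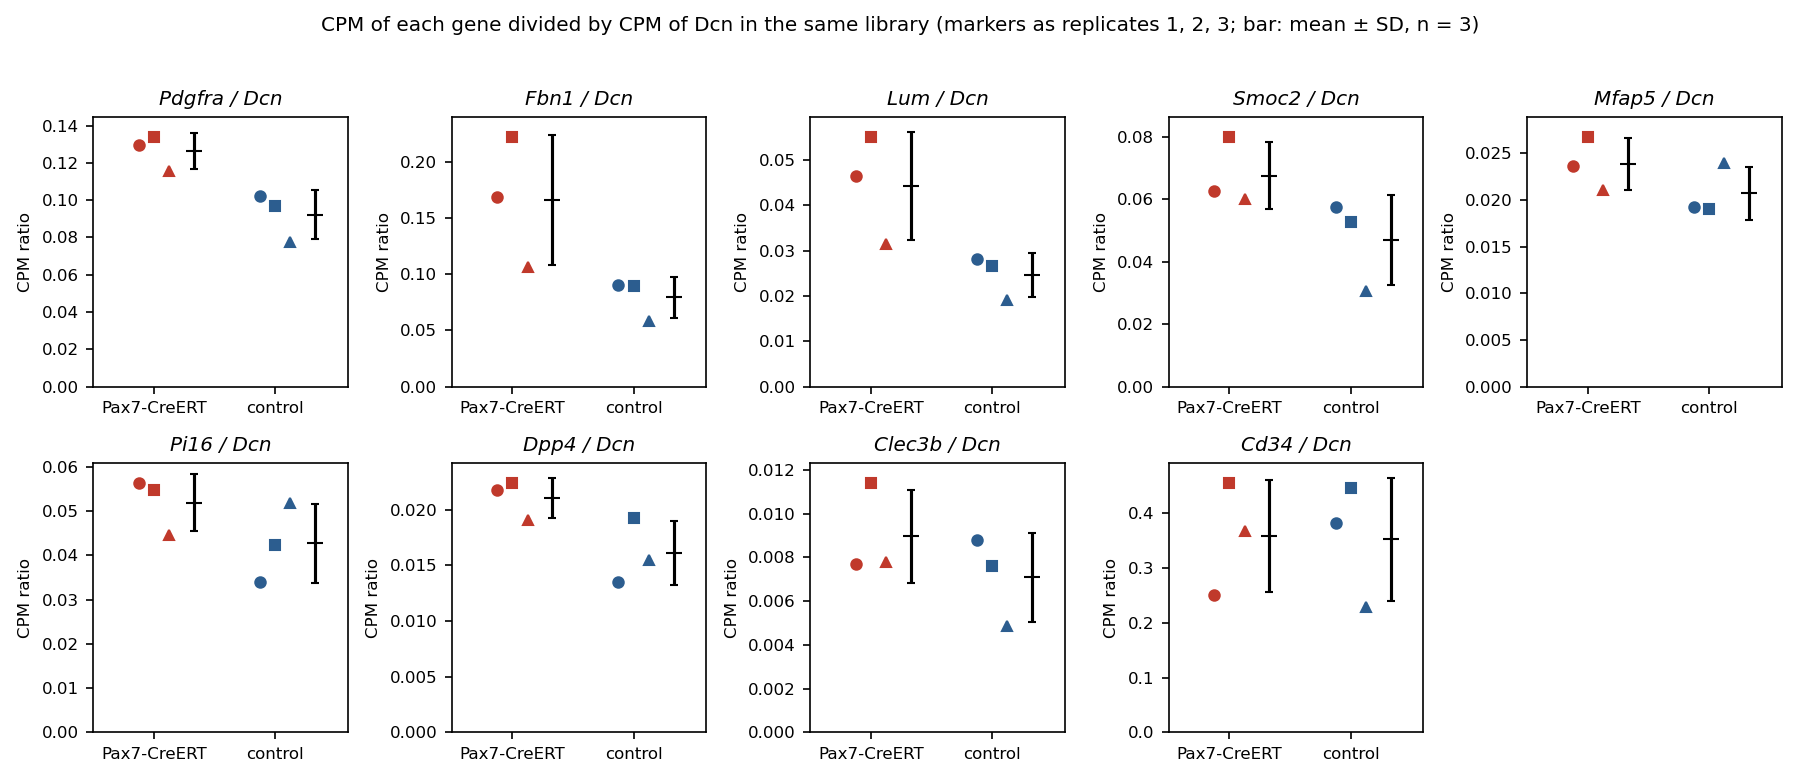
CPM of 9 genes divided by the CPM of Dcn in the same library, with Pax7-CreERT mice left and controls right; circle, square and triangle are replicates 1, 2 and 3 and the bar is the mean ± SD (n = 3 each). The ratios of Pdgfra, Fbn1, Lum and Smoc2 do not overlap between the groups, and those of the other 5 genes do.

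Other genes known from the same cells were read from lists, none of whose members passed at an adjusted p under 0.05 in limma. The counts of higher genes in these lists stand beside 68.0% of all genes tested that were higher, with a median of 0.09. Of all genes, 4.58% were higher and 0.942% lower at an unadjusted p under 0.05 in limma. The groups did not overlap for 11.0% of all genes in either direction and for 8.69% as higher. Of 15 genes of the perivascular, or adventitial, progenitor state 11 were higher and 4 lower in the Pax7-CreERT mice (median log2 fold change 0.18), and 2 were higher at an unadjusted p under 0.05. Efhd1, a calcium-binding protein of mitochondria, measured 40.9, 41.3 and 21.8 CPM in the Pax7-CreERT libraries and 17.2, 19.8 and 25.7 CPM in the controls. Tnfaip6, a hyaluronan-binding protein induced by inflammation, measured 30.1, 12.9 and 22.8 CPM in Pax7-CreERT mice against 13.2, 12.3 and 13.8 CPM in controls. The groups overlapped in both genes. On the other side, the surface antigen gene Ly6a had 421 ± 25.9 CPM in Pax7-CreERT mice against 473 ± 112 CPM in controls and the adhesion receptor gene Adgrd1 had 28.9 ± 10.4 CPM in Pax7-CreERT mice against 34.0 ± 18.4 CPM in controls (SD, n = 3 each).

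Genes of the matrix-rich state within the tissue, called interstitial, gave 8 higher and 6 lower of 14 tested (median 0.10). Of these 14, 1 was higher and 1 lower at an unadjusted p under 0.05 in limma. Col15a1, a basement membrane collagen, measured 90.8, 105 and 72.1 CPM in the Pax7-CreERT libraries and 39.8, 45.8 and 46.4 CPM in the controls. Fmo2, a flavin-containing monooxygenase, measured 958, 907 and 1070.4 CPM in Pax7-CreERT mice against 1459, 1526 and 1290.5 CPM in controls. Both were separate between the groups, with log2 fold changes of 0.99 for Col15a1 (adjusted p = 0.308 in limma) and -0.54 for Fmo2 (adjusted p = 0.891). Mme, the peptidase neprilysin, averaged 16.3 ± 3.68 CPM in Pax7-CreERT mice against 11.4 ± 3.17 CPM in controls, and Apod, a lipocalin, 237 ± 70.4 CPM in Pax7-CreERT mice against 304 ± 79.98 CPM in controls (SD, n = 3 each).

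Transcription factors of mesenchymal progenitors were higher for 12 of 13 tested (median 0.19), with 0 at an unadjusted p under 0.05. Prrx1, a homeobox factor of limb mesenchyme, measured 140, 118 and 98.3 CPM in the Pax7-CreERT libraries and 81.1, 75.6 and 118 CPM in the controls, and Ebf2, a factor of fat precursors, 42.7, 37.7 and 26.5 CPM in Pax7-CreERT mice against 26.6, 26.8 and 27.4 CPM in controls. Both overlapped between the groups. Twist2, a basic helix-loop-helix factor, was the one lower gene, at 1.94 ± 0.792 CPM in Pax7-CreERT mice against 2.17 ± 1.17 CPM in controls (SD, n = 3 each).

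Of the 5 genes for the ligands and the other receptor of the PDGF family 4 were higher and 1 lower (median 0.17), and 0 reached an unadjusted p under 0.05. Pdgfrb, the receptor that pericytes also carry, averaged 242 ± 30.5 CPM in Pax7-CreERT mice against 204 ± 10.5 CPM in controls and the ligand gene Pdgfa 13.1 ± 1.15 CPM in Pax7-CreERT mice against 10.9 ± 2.28 CPM in controls, and the ligand gene Pdgfd 76.5 ± 14.2 CPM in Pax7-CreERT mice against 76.4 ± 9.55 CPM in controls (SD, n = 3 each).

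Relatives of Dcn and Lum, 10 small leucine-rich proteoglycan genes tested, were higher for 9 and lower for 1 (median 0.21), and 0 reached an unadjusted p under 0.05. Ecm2 averaged 175 ± 24.2 CPM in Pax7-CreERT mice against 141 ± 26.2 CPM in controls and Aspn, which encodes asporin, 121 ± 21.7 CPM in Pax7-CreERT mice against 96.02 ± 15.0 CPM in controls, while Prelp averaged 108 ± 33.1 CPM in Pax7-CreERT mice against 114.5 ± 27.2 CPM in controls (SD, n = 3 each). Relatives of Fbn1 and Mfap5, 16 microfibril and elastic fibre genes, were higher for 13 and lower for 3 (median 0.29), with 3 higher at an unadjusted p under 0.05. Ltbp4, which binds latent transforming growth factor beta to microfibrils, was separate between the groups, at 155, 151 and 136 CPM in the Pax7-CreERT libraries and 91.4, 122 and 92.3 CPM in the controls (log2 fold change 0.54, adjusted p = 0.891 in limma). Ltbp2 was faint, at 2.63, 1.35 and 3.26 CPM in Pax7-CreERT mice against 0.167, 0 and 2.47 CPM in controls. Eln, the elastin gene, averaged 169 ± 4.61 CPM in Pax7-CreERT mice against 195 ± 79.6 CPM in controls, and Fbln2, which encodes fibulin-2, 664 ± 128 CPM in Pax7-CreERT mice against 732 ± 41.5 CPM in controls (SD, n = 3 each).

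The SPARC family around Smoc2 gave 3 higher and 2 lower of 5 tested (median 0.09). Of these 5, 1 was higher and 1 lower at an unadjusted p under 0.05 in limma. Fstl1, a secreted follistatin-like protein, measured 496, 398 and 295 CPM in the Pax7-CreERT libraries and 267, 283 and 317 CPM in the controls. Spock2, which encodes the proteoglycan testican-2, was lower without overlap, at 114, 89.3 and 118 CPM in Pax7-CreERT mice against 121, 164 and 266 CPM in controls (log2 fold change -0.71, adjusted p = 0.891 in limma). Sparc averaged 1041 ± 161 CPM in Pax7-CreERT mice against 870 ± 83.9 CPM in controls and Smoc1 2.92 ± 1.30 CPM in Pax7-CreERT mice against 3.11 ± 1.80 CPM in controls (SD, n = 3 each). Relatives of Pi16, Dpp4 and Cd34 were higher for 8 and lower for 3 of 11 (median 0.06). Of these 11, 2 were higher and 1 lower at an unadjusted p under 0.05 in limma. Pi15, of the CAP family like Pi16, measured 68.6, 45.1 and 26.3 CPM in Pax7-CreERT mice against 20.9, 22.1 and 28.6 CPM in controls. Podxl2, a sialomucin related to Cd34, measured 8.79, 7.28 and 6.04 CPM in Pax7-CreERT mice against 3.81, 3.50 and 4.69 CPM in controls and did not overlap. Glipr1, of the CAP family, was lower without overlap at 3.29, 3.16 and 3.02 CPM in Pax7-CreERT mice against 3.46, 5.79 and 7.66 CPM in controls, and the peptidase gene Dpp9 averaged 11.6 ± 1.63 CPM in Pax7-CreERT mice against 13.8 ± 2.62 CPM in controls (SD, n = 3 each).

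Of 13 genes tested for the fates open to these cells, fibroblast and fat cell, 10 were higher and 3 lower (median 0.29), and 5 were higher at an unadjusted p under 0.05. Col1a1, a chain of type I collagen, measured 224, 111 and 56.6 CPM in the Pax7-CreERT libraries and 32.6, 52.5 and 34.8 CPM in the controls, and Postn, which encodes the matricellular protein periostin, 42.3, 35.3 and 25.8 CPM in Pax7-CreERT mice against 24.9, 21.7 and 16.5 CPM in controls. Both were separate between the groups, with log2 fold changes of 1.497 and 0.68 (adjusted p = 0.891 each in limma). The fat cell genes Pparg, a nuclear receptor, and Adipoq, an adipokine, averaged 31.0 ± 1.86 CPM in Pax7-CreERT mice against 37.1 ± 5.79 CPM in controls and 6.16 ± 1.61 CPM in Pax7-CreERT mice against 8.71 ± 3.13 CPM in controls (SD, n = 3 each).

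**Figure D5:**
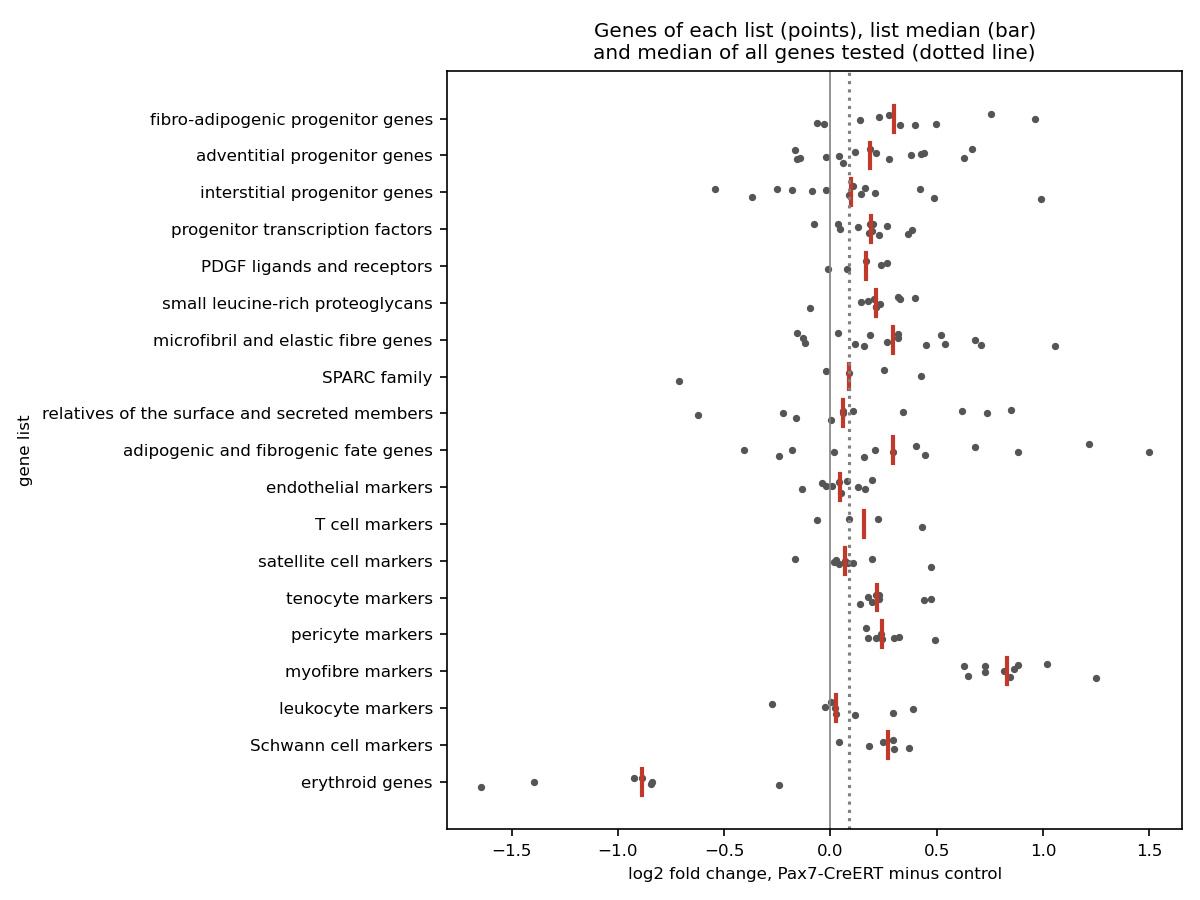
Log2 fold change, Pax7-CreERT minus control, of every tested gene of each list (points) with the list median (red bar); the dotted line is the median of all genes tested, 0.09. The 10 progenitor genes have a median of 0.30, myofibre markers one of 0.83 and erythroid genes one of -0.89.

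Markers of other cell types were read in the same libraries, again beside 68.0% of all genes tested that were higher. The share of all genes that were higher at an unadjusted p under 0.05 in limma was 4.58%. All 10 myofibre markers had higher means in the Pax7-CreERT mice (median 0.83), 9 of them at an unadjusted p under 0.05. They summed to 2174 to 3049 CPM in these mice, with the highest sum in replicate 1, and to 1070.0 to 1761 CPM in the controls, with the lowest sum in replicate 3. The 8 tenocyte markers summed to 851 to 1481 CPM in the Pax7-CreERT mice, again highest in replicate 1, and 752 to 1154 CPM in the controls (8 of 8 higher, median 0.22). Most of each sum was Egr1, at 1139, 673 and 936 CPM in the Pax7-CreERT libraries and 872, 1054 and 487 CPM in the controls. The median centred log2 level of the list was 0.74, -0.02 and -0.34 in the Pax7-CreERT libraries and 0.06, -0.85 and 0.38 in the controls, so it was highest in Pax7-CreERT replicate 1 and control replicate 3. These were the 2 highest libraries for Fmod (203 and 150.5 CPM), Kera (38.8 and 38.5 CPM) and Cilp2 (15.1 and 12.3 CPM). They were not the 2 highest for the other markers of the list, Scx, Tnmd, Mkx, Thbs4 and Egr1. The same 2 libraries were highest for 6 of the 10 progenitor genes, Cd34 among them by a narrow margin, and for 7.11% of all genes tested. The 8 pericyte markers summed to 8173 to 10304 CPM in Pax7-CreERT mice against 6436 to 8287 CPM in controls (8 of 8 higher, median 0.24), and the 6 Schwann cell markers to 976 to 1248 CPM in Pax7-CreERT mice against 897 to 964 CPM in controls (6 of 6 higher, median 0.27).

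Markers of satellite cells, the cells in which Pax7 drives the Cre, summed to 661 to 725 CPM in Pax7-CreERT mice. In controls they summed to 645 to 784 CPM, with 8 of 9 tested higher in Pax7-CreERT mice and a median of 0.07. Most of each sum was Spry1 and Sdc4. Pax7 itself measured 14.4, 16.3 and 19.3 CPM in the Pax7-CreERT libraries and 16.5, 21.6 and 10.9 CPM in the controls. The 8 leukocyte markers summed to 446 to 610 CPM in Pax7-CreERT mice against 369 to 732 CPM in controls (6 higher, 2 lower, median 0.03) and were highest in control replicate 3. Endothelial markers were higher for 7 and lower for 3 of 10 (median 0.04), T cell markers higher for 3 and lower for 1 of 4 tested (median 0.16), and all 7 erythroid genes were lower (median -0.89). No gene of these marker lists was at 0 in any library except Cd3e, Cd3g and the satellite cell gene Chrdl2. The part of these cells in the values of the 10 progenitor genes was not tested.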

How the data were processed

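Per the labels' protocols, Trizol-extracted RNA went into SureSelect strand-specific libraries, 3 per genotype. The deposited values are CPM with 0.0001 added by the authors, read from column sums of 1000000 plus that constant, which was subtracted here. The submitters' processing notes name Partek, DESeq2 and mm10 without their roles; the aligner and the counter are not given in the sources used here. Depth was estimated from the smallest step between low values. Fewer than 95% of values up to 20 reads were whole within 0.05 read, so no count test was run.

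The 14763 genes that reached 1 CPM in 3 or more libraries were tested with limma 3.58.1 (R 4.3.3) on log2(CPM + 1) with a mean-variance trend and Benjamini-Hochberg adjustment over all genes tested; the constant shrinks fold changes of faint genes. The test was checked on simulated data. The simulated noise was independent between genes, so shifts shared by many genes in a library were not covered. Noise of the most variable genes was capped, and changes were planted only in genes at or above the median level. Replicate numbers follow record order. Each library is taken as 1 mouse, which the labels do not state; p-values measure the spread between libraries. From each table end 1 was subtracted, because most members' ends then equal the RefSeq end. Exon lengths are unions from GENCODE (release vM21). The within-library ratios and the counts with a library left out were chosen after seeing the data. Companion genes named are those with the 2 smallest p-values in each direction. The members and lists were chosen with earlier results of these data known.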

Additional observations from a re-analysis of the deposited data

How the results depend on the processing

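Of 160 values of the 10 genes under 16 alternatives (constants of 0.1 and 5, other filters, scalings and weights, and left-out libraries), 148 kept their direction, 12 reversed and 0 passed at an adjusted p under 0.05 in limma (0.240 to 0.9999). Fbn1, Lum, Smoc2, Pdgfra and Clec3b kept theirs throughout. Cd34 was 0.00084 with quantile normalization and Dcn 0.18 with array weights. Leaving out each replicate gave ranges of -0.38 to 0.24 for Dcn, -0.11 to 0.054 for Cd34, -0.15 to 0.67 for Pi16, -0.0032 to 0.60 for Dpp4 and -0.17 to 0.54 for Mfap5. Over these the median of the 10 genes ran from 0.03, without Pax7-CreERT replicate 1, to 0.56, without control replicate 3; without both libraries it was 0.25. Scaling by the median of ratios moved the median of all genes from 0.09 to 0.0021 and that of the 10 genes from 0.30 to 0.21. Over all genes, 1 was lower, 2 without a filter, 2 without both libraries, and 0 to 1 with each replicate left out; 0 were higher. The count of members that were separate between groups ran from 0 to 6, and of member pairs from 14 to 23, when each replicate was left out. The share of all genes that were separate was then 18.0% to 23.9%, against 11.0% with all libraries, and the share of all pairs was not counted. No paired analysis was possible because the labels give no replicate numbers. Depth limits the faintest gene, Clec3b, to a counting SD of 14.1% in the library with 50 reads. The causes of these shifts were not tested.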

Other observations

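Outside the 10 genes, the profiles nearest to their median profile, among 9417 other genes with a mean of at least 10 CPM, belonged to Dact1, Sfrp4 and Efemp1, at root mean square distances of 0.057, 0.065 and 0.068 on the centred log2 scale over 6 libraries. Dact1, an intracellular regulator of Wnt signalling, measured 46.7, 28.4 and 23.4 CPM in the Pax7-CreERT libraries and 22.2, 19.7 and 29.4 CPM in the controls. Sfrp4, a secreted Wnt-binding protein, measured 89.6, 46.5 and 41.7 CPM in Pax7-CreERT mice against 43.1, 39.5 and 56.0 CPM in controls. Efemp1, which encodes fibulin-3, measured 71.3, 36.1 and 34.2 CPM in Pax7-CreERT mice against 32.4, 29.6 and 46.6 CPM in controls. In each, Pax7-CreERT replicate 1 was highest. The next were Adamts5, an aggrecan-cleaving protease (0.11), Flnc, a filamin of muscle (0.12), and Ildr2, Angptl1 and Gm1987 (0.12 each). None of the 8 passed between genotypes, with log2 fold changes of 0.28 to 0.52 and adjusted p-values in limma of 0.896 to 0.907. These genes were chosen for their likeness and the distances carry no test.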
